A study of Rattus norvegicus with 64 samples.

Results

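The cytosolic ribosomal protein genes were read in reconstructed rat bladder walls that had healed on an acellular matrix with or without adipose-derived stem cells. Most of their probes were too bright for the scanner. Of 10 genes with a probe below that limit on every array, none was called between the grafts through its brightest such probe. Members were chosen by name only: each non-control probe whose RefSeq transcript belonged to a rat gene named Rpl or Rps with a number, or to Rplp0, Rplp1, Rplp2 or Rpsa. The reference held 77 such genes, of which 75 had a probe, 45 of the large subunit and 30 of the small subunit, through 132 probes. The array as a whole had 30367 gene probes, and 18758 of them could be named as 15715 genes. Rpl37 and Rps9 had no probe.

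Ribosomal proteins assemble with ribosomal RNA in the nucleolus into a large and a small subunit, which then read mRNA in the cytoplasm. Their mRNAs are among the most abundant of any cell, and most begin with a C followed by a run of pyrimidines, the TOP motif, through which mTORC1 adjusts their translation to growth signals. Because translation is regulated apart from mRNA level, an array of mRNA does not read ribosome output.

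The study compared 2 grafts at 4 times after hemicystectomy in male syngeneic Wistar rats, to follow how seeded cells altered healing. The control grafts were bladder acellular matrix (BAM) with no cells, and the other grafts were the same matrix carrying adipose-derived stem cells (ASCs, which the labels call ADSCs). The ASCs came from retroperitoneal fat of male Wistar donors aged 10 weeks and were used at the third passage. Total RNA of the reconstructed wall was hybridised in 1 colour at 7, 30, 90 and 180 days, with 8 arrays for each graft and day and 64 in all. All rats, controls included, had the same operation, and bladders without a graft were not analysed here. A labelled biological replicate was 1 array, and the arrays were bulk samples, in which fewer cells of a type and less RNA per cell cannot be told apart.

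Each group lay on a slide of its own, so slide and group cannot be told apart in any comparison. The 2 scan dates separated days 7 and 30 from days 90 and 180, and differences between days were computed within those pairs, except for 1 interaction, from day 30 to 90, which spans both dates. Between 35.5% and 95.6% of the spots on an array were well above background. The bladder identity of the tissue was borne by its markers: all 6 smooth muscle markers with a probe were well above background on every array of every group, as were all 6 urothelial markers except 1 in the BAM group at day 7. At day 7 the summed urothelial level was 0.91 to 6.66 (log2 relative to the array's 75th percentile) with BAM and 5.30 to 7.15 with ASCs, and its part in the ribosomal protein values was not tested.

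The start of the transcript is shown for 10 genes because the TOP motif is described for most mRNAs of this family. Promoters were found in RefSeq (GRCr8) for 60 of the 75 members. Each line gives the 15 bases before the annotated first base of the RNA and the 15 bases that begin with it, and capitals mark an unbroken run of 5 or more C or T that covers the first base. The first 5 belong to genes with a probe saturated on no array (Rpl14, Rpl28, Rpl36a, Rps16 and Rpsa), and the last 5 to genes with saturated probes.
Rpl14, chr8:129163605-129163634, plus strand: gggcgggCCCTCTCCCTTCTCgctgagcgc
Rpl28, chr1:78083518-78083547, minus strand: ccccgcccctagtgTCTTTCTTTCCgtctc
Rpl36a, chrX:102059434-102059463, plus strand: ccgcctataaaCTTCCgttgctgctctagc
Rps16, chr1:92770643-92770672, plus strand: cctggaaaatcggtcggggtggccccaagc
Rpsa, chr8:128728864-128728893, plus strand: cctttccgcgctaccctggaacgggtccgt
Rplp0, chr12:46718376-46718405, minus strand: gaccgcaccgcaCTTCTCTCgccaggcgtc
Rplp1, chr8:71290858-71290887, minus strand: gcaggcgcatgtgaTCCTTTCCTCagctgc
Rpl19, chr10:83519049-83519078, plus strand: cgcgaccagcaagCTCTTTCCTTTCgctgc
Rps27, chr2:177964592-177964621, minus strand: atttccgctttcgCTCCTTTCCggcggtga
Rpl35a, chr11:81235007-81235036, minus strand: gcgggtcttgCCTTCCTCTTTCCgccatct

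A run of at least 5 C or T covered the annotated first base in 37 of the 61 member promoters, or 60.7%, and in 12% of the 33469 rat promoters in the table. The share was 16.1% for mitochondrial ribosomal proteins, which work in another compartment, 14.3% for ribosome assembly factors, and 25% of 20 promoters of translation factors and other genes with known TOP mRNAs. Rpl35a had a run of 13 bases and Rpl14 of 14, whereas Rps16 had no C or T at its annotated first base and Rpsa a run of 4. From 250 bases before to 50 after the start, both strands searched, CCGGAAG, a core site of ETS factors, occurred in 31.1% of member promoters against 8.75% of all. GGGCGG, a core Sp1 site, occurred in 57.4% against 33.1%. Neither site set the members apart from the related lists. For mitochondrial ribosomal proteins, assembly factors and the translation factor list, CCGGAAG occurred in 33.9%, 57.1% and 15% of promoters. GGGCGG occurred there in 48.4%, 68.6% and 55%. CTTTCC, which a pyrimidine run can contain, occurred in 50.8% against 26.4%, and TATAAA in 9.84% against 14.2%. Annotated starts may lie a few bases from the true ones, so a missing run says only that these letters are not at the annotated base.

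On the arrays the shared feature of the members was brightness. A spot was counted as saturated where the Agilent software marked it so, which happened at a scanner value of 65502. Of the 132 member probes, 53 (40.2%) were saturated on all 64 arrays, 67 on some arrays and 12 on none. Over all gene probes 162 (0.533%) were saturated on every array and 1199 (3.95%) on at least 1, against 120 member probes (90.9%). For 23 genes every probe was saturated on every array, and for 10 genes at least 1 probe was saturated on none, among them Rpl14, Rpl15, Rpl23a, Rpl27, Rpl28, Rpl36a, Rps16, Rps25 and Rpsa. The other 42 genes lay between, and in all 39 genes had a least saturated probe that was saturated on 40 or more arrays.

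**Figure D1:**
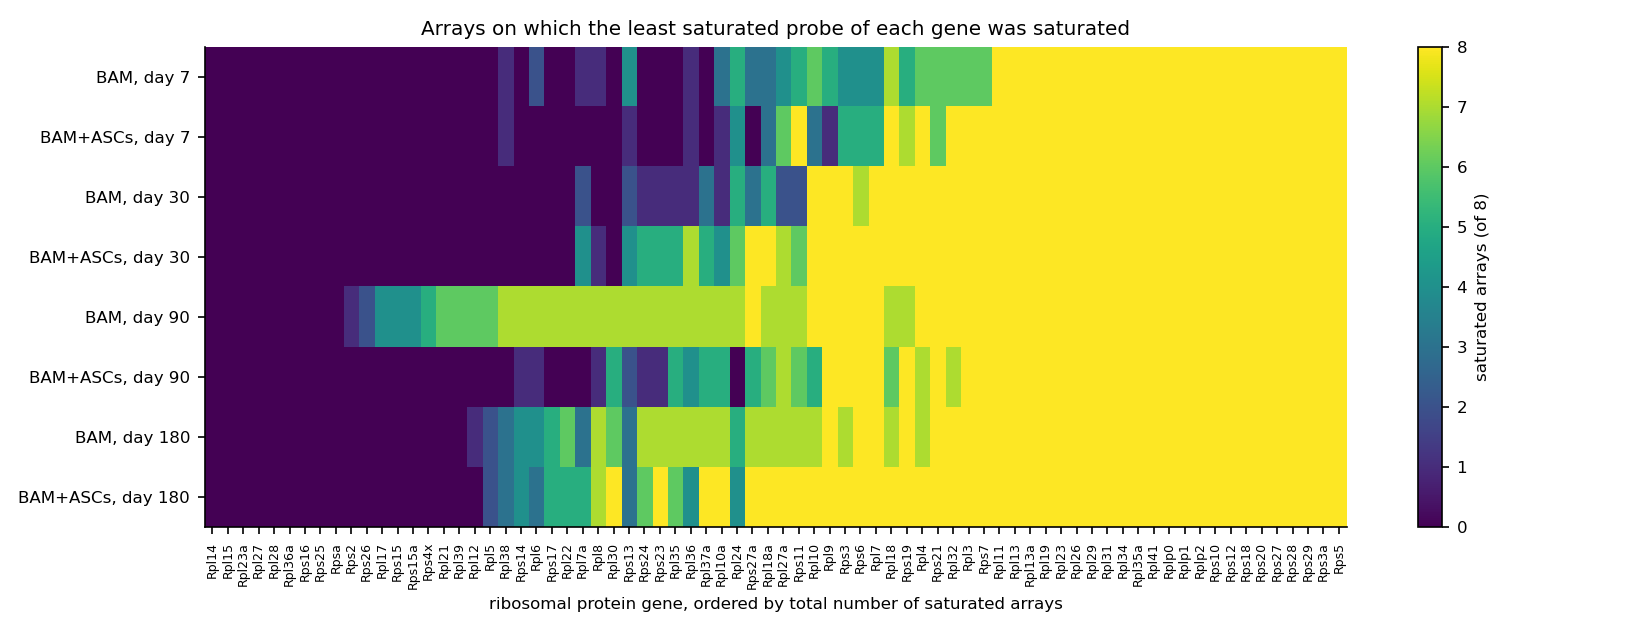
Heat map of 74 of the ribosomal protein genes by the 8 groups of graft and day, where colour gives the number of the 8 arrays on which the gene's least saturated probe was saturated. The 23 genes at the right are saturated on every array, the 9 genes at the left on none, and genes between them are saturated on more arrays in the BAM group at day 90.

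The members named for their roles were mostly out of range. The stalk proteins Rplp0, Rplp1 and Rplp2, which recruit the GTPases of elongation, were saturated on all 64 arrays, as were Rpl11, which with Rpl5 carries the 5S RNA and can bind Mdm2, and Rpl13a and Rps18, both in use as PCR reference genes. The least saturated probe of Rps19, a gene mutated in Diamond-Blackfan anaemia, was saturated on 59 arrays. It was saturated on 56 arrays for Rps6, the substrate of S6 kinase, on 53 for Rpl10, a late-joining protein of the large subunit, and on 42 for Rps27a, which is made as a fusion with ubiquitin. Rpl22 was saturated on 18 arrays, Rpl38 on 15 and Rpl5 on 10. Of the named role genes only Rpsa, a small subunit protein also described as a laminin receptor precursor, was read on every array.

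The extent of saturation differed between groups. The number of saturated member probes per array was 55, 80 and 93 (lowest, median and highest of 8 arrays) with BAM and 70, 76 and 92 with ASCs at day 7. At day 30 it was 75, 85.5 and 99 with BAM and 88, 95.5 and 101 with ASCs. At day 90 it was 77, 116 and 120 with BAM against 69, 91 and 96 with ASCs, and at day 180 it was 72, 104 and 112 against 88, 103 and 111. The groups overlapped on every day, and the median difference was widest at day 90, when the BAM arrays were the brighter ones.

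At day 90 the brightness of whole arrays differed in the same direction. The 75th percentile of the gene spots, by which each array was scaled, averaged 11.18 (log2 signal) over the BAM arrays of day 90 and 10.08 over the ASC arrays, a difference of -1.10. The differences in this percentile (ASCs minus BAM) were 0.17 at day 7, 0.11 at day 30 and -0.11 at day 180. The median background of the day 90 arrays was 321 to 366 intensity units with BAM and 99 to 120 with ASCs.

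The saturated members could not follow that brightness. Over the 53 member probes saturated on all arrays, the median log2 signal before scaling lay between 15.99 and 16.06 on each of the 64 arrays, with an SD of 0.0146. At day 90 it differed by -0.02 between ASCs and BAM before scaling, and by 1.08 after the 75th percentile was subtracted. Rplp0 shows it for 1 gene: at day 90 its log2 signal was 15.99, 16.07 and 16.15 (lowest, median and highest) with BAM and 16.01, 16.10 and 16.28 with ASCs. After scaling the same spots read 4.47, 4.68 and 6.08 with BAM and 5.68, 6.02 and 6.53 with ASCs. The unscaled ranges overlapped, and the scaled medians stood 1 unit and more apart.

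**Figure D2:**
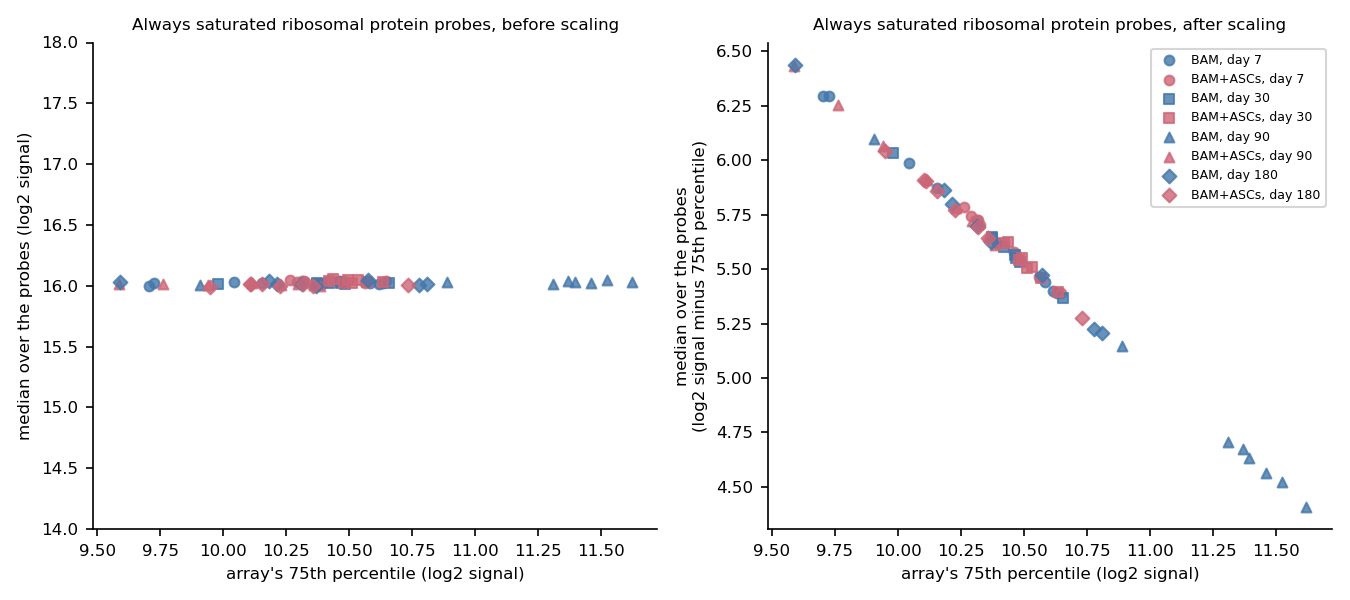
Each point is 1 of the 64 arrays, with its 75th percentile (log2 signal) on the x axis and, on the y axes, the median over the 53 member probes saturated on all arrays before scaling (left) and after the percentile was subtracted (right). The unscaled median stays between 15.99 and 16.06 while the scaled median falls in step with the percentile, and its lowest values are those of most BAM arrays of day 90.

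Differentially expressed genes were those that passed both 1.5-fold and an adjusted p of 0.01 in limma over all 30367 probes. If saturated probes were kept, 69 of the 75 members were called at day 90 and 69 from day 90 to day 180 with BAM, with median differences of 1.06 and 0.82 on the log2 scale, where 12.5% and 9.39% of all probes were called. At day 90 all 53 always-saturated member probes were called, and so were all 109 always-saturated probes of other genes, with the same median of 1.09 in both sets. From day 90 to day 180 with BAM all 53 and all 109 were called again, and in the other 6 comparisons of this kind none was. With quantile normalization in place of the percentile, 6 of the 53 and 24 of the 109 were called at day 90, where 10% of all probes were. A spot at the scanner's limit in both groups gives no fold change, so these probes are left out of what follows.

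Read through the brightest probe that was saturated on no array, 0 of 10 members were called by limma between the grafts at any of the 4 days. At an unadjusted p below 0.05 the numbers were 4 at day 7, 0 at day 30, 2 at day 90 and 0 at day 180, where 29.2%, 25.8%, 47.9% and 14.1% of all probes had such a p. At an adjusted p below 0.05, with no limit on the fold, they were 2, 0, 2 and 0 members beside 17.5%, 8.26%, 35.1% and 5.13% of all probes. The two-way model without moderation called 0 on every day too. Among all probes 7.73%, 1.67%, 12.5% and 2.44% were called on those days, so that about 1 call in 10 genes would have equalled the background at day 90. The median difference of the 10 members (ASCs minus BAM, log2) was -0.12 at day 7, 0.01 at day 30, 0.06 at day 90 and -0.02 at day 180, while the median over all probes was -0.16, 0.11, -0.27 and 0.06. With quantile normalization the member medians were 0.04, 0.05, 0.11 and -0.09.

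**Figure D3:**
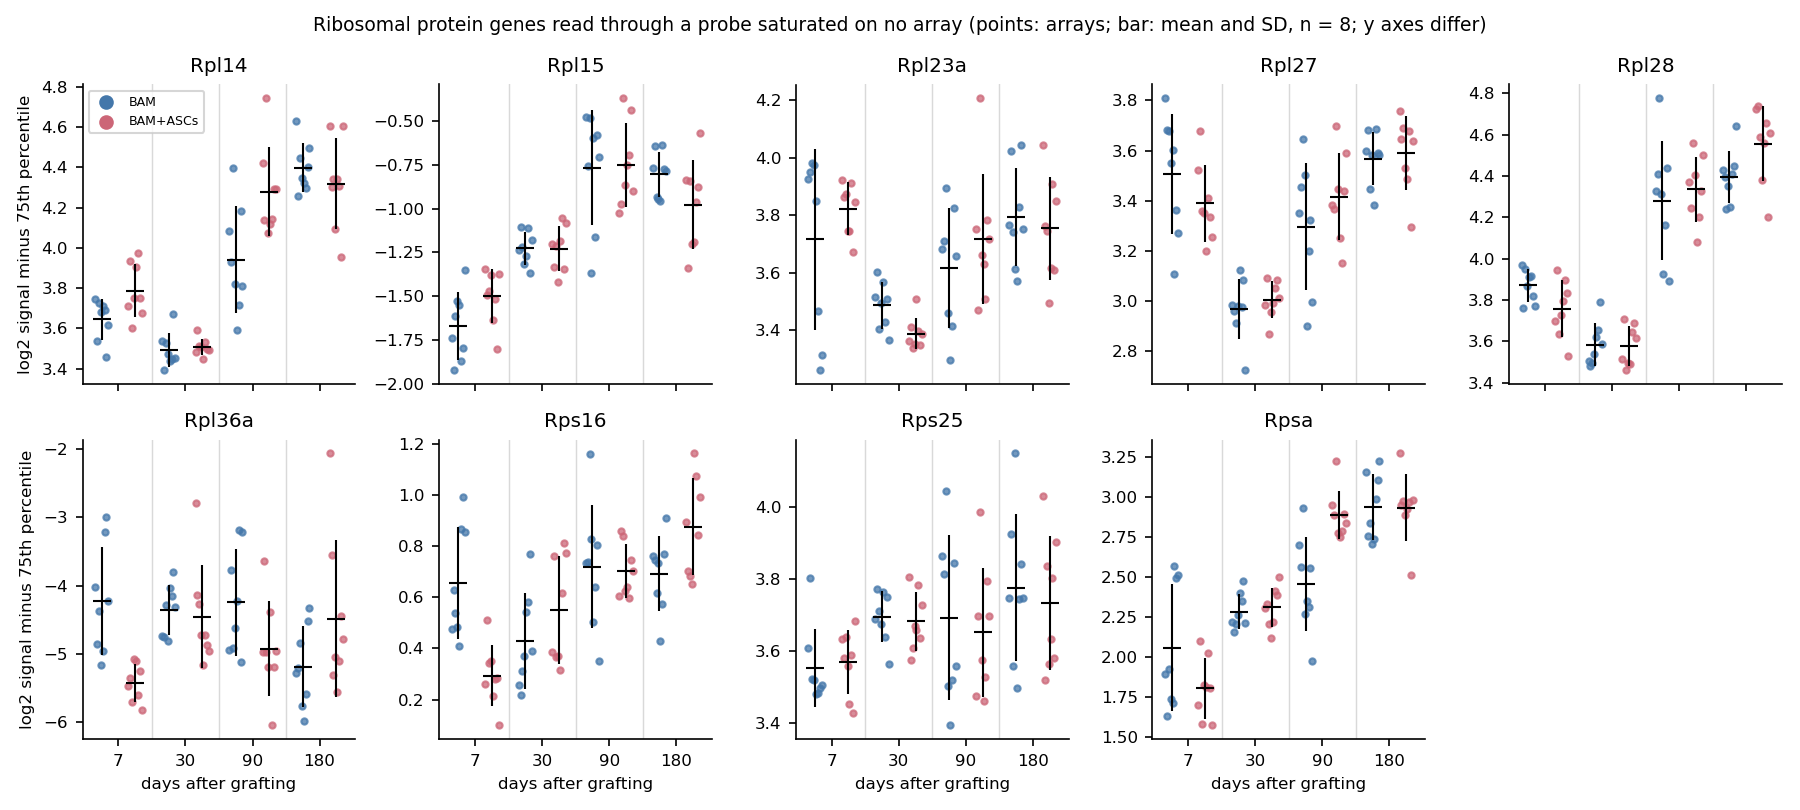
Levels of 9 genes read through a probe saturated on no array (log2 signal minus the array's 75th percentile) on each of the 64 arrays, by graft and day, with the mean and SD of 8 arrays. The y axes differ between genes. The ranges of the grafts overlap for each gene on each day, and the Rpl36a probe is well above background on all arrays of days 7 and 30 but on few of days 90 and 180.

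At day 7 the lowest adjusted p among the 10 was that of Rps16, a small subunit protein whose tail reaches the tRNA in the decoding site. Its level was 0.41, 0.58 and 0.99 (lowest, median and highest of 8) with BAM and 0.10, 0.28 and 0.51 with ASCs. The ranges touched, but 7 of the 8 ASC bladders lay below every BAM bladder. BAM replicates 6, 7 and 8 read 0.87, 0.99 and 0.86, and the other BAM arrays 0.41 to 0.63. Those replicates also had the lowest 75th percentiles of their group (9.70, 9.73 and 10.04, log2 signal). How much of the Rps16 difference rests on them together was not tested. The means were 0.66 ± 0.22 (SD, n = 8) and 0.29 ± 0.12, a difference of -0.36 with a 95% interval of -0.55 to -0.17 and a limma adjusted p of 0.00461. This was a 1.29-fold difference, short of the 1.5-fold limit, and it was -0.33 with quantile normalization (adjusted p 0.0126).

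Rpsa at day 7 read 1.63, 1.91 and 2.57 with BAM and 1.57, 1.81 and 2.10 with ASCs, and the ranges overlapped. BAM replicates 6, 7 and 8 again stood apart, at 2.57, 2.49 and 2.51 beside 1.63 to 1.93. Its difference of -0.26 did not pass the test (limma adjusted p 0.128). The large subunit proteins with the highest positive differences were Rpl15 at 0.17, Rpl14 at 0.14 and Rpl23a at 0.11, none past the test. For Rpl23a the same BAM replicates read 3.47, 3.26 and 3.31, and the other BAM arrays 3.85 to 3.98. With quantile normalization Rpl14 differed by 0.32 (adjusted p 0.00267), a lower p than that of Rps16, and Rpl23a by 0.28 (adjusted p 0.0363).

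Rpl36a carried the largest difference of day 7 and the least certain one. The probe used was dim and read -5.16, -4.29 and -2.99 with BAM and -5.82, -5.41 and -5.07 with ASCs. It differed by -1.20 (limma adjusted p 0.0125), with 6 of 8 ASC bladders below every BAM bladder. A brighter probe of the same gene, saturated on no array of that day, differed by -0.17 (limma adjusted p 0.252). After normexp background correction the dim probe differed by -0.39 (adjusted p 0.0943). Rpl36a was well above background on 36 of the 64 arrays, and at days 90 and 180 on 3 and 1 of 16, so no fold is given there.

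At day 30 none of the 10 members differed by more than 0.12 in size on the log2 scale. Among the highest were Rps16 at 0.12 and Rpl27 at 0.04, and the lowest were Rpl23a at -0.10, Rpl36a at -0.09 and Rps25 at -0.01. Rps25, a small subunit protein needed by several viral internal ribosome entry sites, read 3.56, 3.70 and 3.77 with BAM and 3.58, 3.66 and 3.81 with ASCs. The 2 ranges were nearly the same.

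At day 90 Rpsa and Rpl14 were higher with ASCs, each by less than 1.5-fold. Rpsa read 1.97, 2.45 and 2.93 with BAM and 2.75, 2.86 and 3.22 with ASCs. All 8 ASC bladders lay above the BAM mean and 2 above every BAM bladder. The means were 2.46 ± 0.29 (SD, n = 8) and 2.89 ± 0.15, a difference of 0.43 with a 95% interval of 0.20 to 0.66 (limma adjusted p 0.00405).

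Rpl14, a large subunit protein, read 3.59, 3.87 and 4.40 with BAM and 4.08, 4.22 and 4.74 with ASCs at day 90. Its difference was 0.34, with a 95% interval of 0.16 to 0.51 and a limma adjusted p of 0.00291, which became 0.061 when only the 16 arrays of that day were fitted. With quantile normalization the differences were 0.48 for Rpsa and 0.42 for Rpl14. Rpl27 was next at 0.12 and did not pass the test. Among members well above background on all 16 arrays, which leaves out Rpl36a, the lowest were Rps25 at -0.04, Rps16 at -0.02 and Rpl15 at 0.01.

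For Rpl23a, which lines the exit of the peptide tunnel, the choice of probe mattered at day 90. The brighter unsaturated probe gave 0.10 (limma adjusted p 0.41), while its other unsaturated probe gave 0.51 (limma adjusted p 0.000352), with 7 of 8 ASC bladders above every BAM bladder. Both probes are annotated to the same gene, and which of them follows its mRNA was not tested. Rpl28 also had another unsaturated probe, which differed by -0.93 at day 90 (limma adjusted p 0.00742) and passed the call rule. That probe was well above background on 0 of 16 arrays and differed by -0.31 with quantile normalization. The brighter probe, used for Rpl28 here, differed by 0.06 (limma adjusted p 0.615).

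At day 180 no member passed the test. Among members well above background on all 16 arrays, which leaves out Rpl36a, the highest differences were Rps16 at 0.18, Rpl28 at 0.16 and Rpl27 at 0.02. Among the lowest were Rpl15 at -0.17 and Rpl14 at -0.08. Rps16 read 0.43, 0.74 and 0.91 with BAM and 0.65, 0.87 and 1.16 with ASCs, with 3 of 8 ASC bladders above every BAM bladder, and the 95% interval of its difference ran from -0.01 to 0.38.

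More genes could be read if a probe had only to be unsaturated on the 16 arrays of the day compared, a reading added after the data were seen. There were 28 genes at day 7, 26 at day 30, 10 at day 90 and 18 at day 180, and 0 of them were called by limma, with 6, 0, 2 and 1 at an unadjusted p below 0.05, beside the 29.2%, 25.8%, 47.9% and 14.1% of all probes given above. The 95% interval of the difference lay inside 1.5-fold in both directions for 28 of 28, 26 of 26, 8 of 10 and 17 of 18 genes. The median half-width of these intervals was 0.18 to 0.19 on the log2 scale. At day 90 the exceptions were Rpl36a and Rpsa, and at day 180 Rpl36a. A probe not marked as saturated could still lie near the scanner's limit. The least saturated Rpl38 probe was marked on no array of day 30. Its unscaled log2 signal there was 15.67, 15.95 and 16.06 with BAM and 15.67, 15.99 and 16.04 with ASCs. The always-saturated member probes had array medians of 15.99 to 16.06. Whether nearness to the limit, or saturation on arrays of other days, altered the width of the intervals was not tested.

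**Figure D4:**
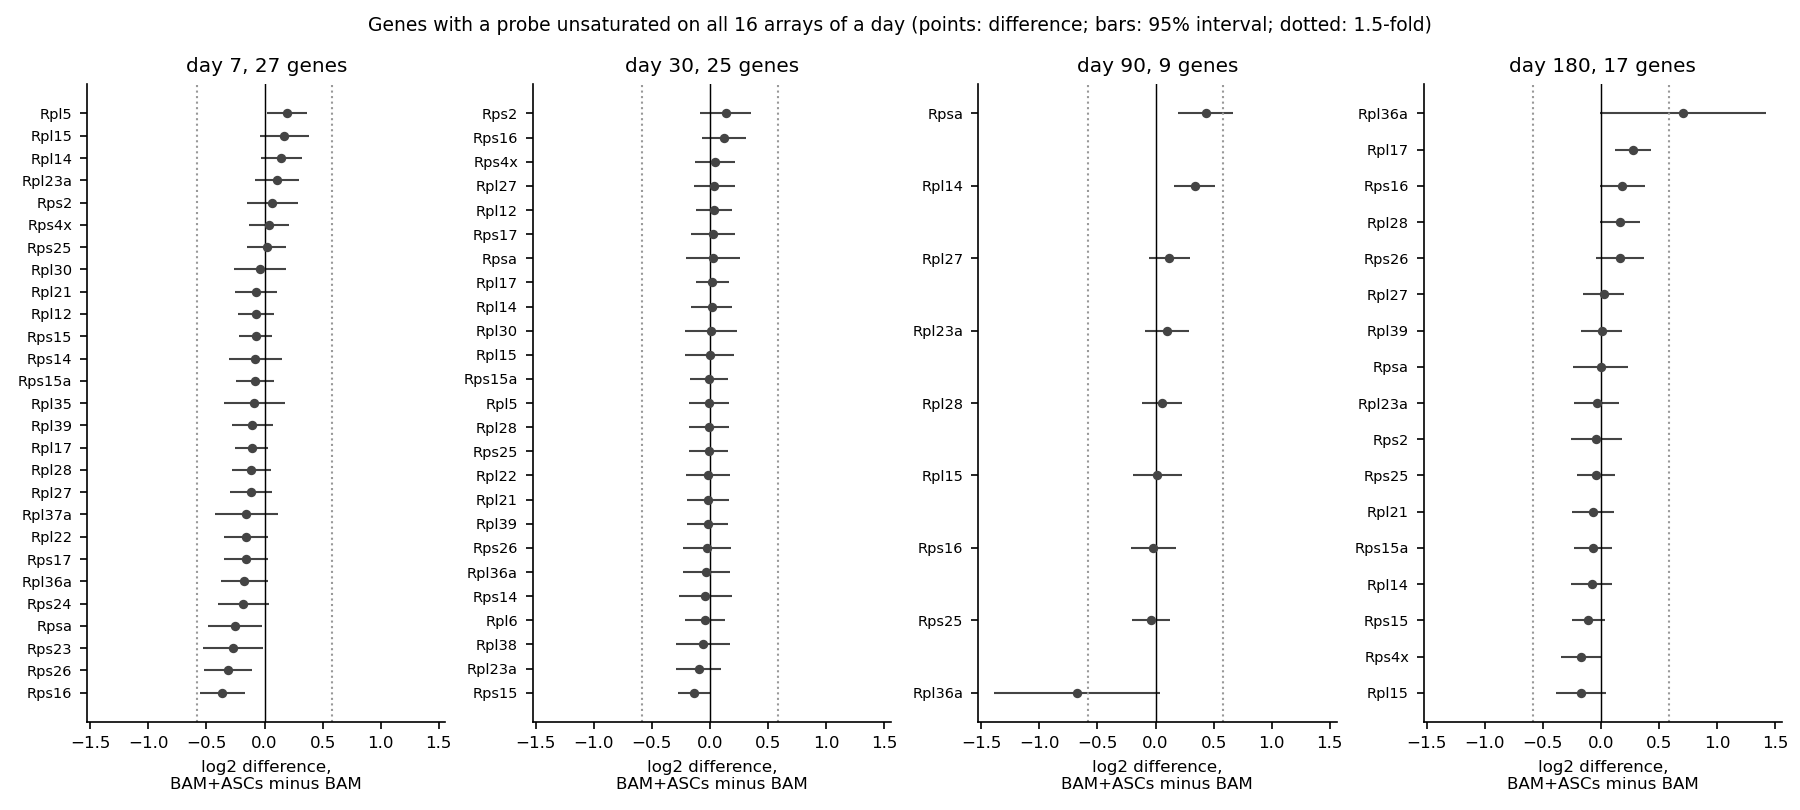
Differences between grafts (BAM seeded with ASCs minus BAM, log2) for genes with a probe unsaturated on all 16 arrays of the day, 27, 25, 9 and 17 genes at days 7, 30, 90 and 180, with 95% intervals; dotted lines mark 1.5-fold. The intervals lie inside the dotted lines except for Rpl36a and Rpsa at day 90 and Rpl36a at day 180.

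In that wider reading Rps26, which lines the channel where mRNA leaves the small subunit, was lower with ASCs at day 7. It read 3.69, 3.88 and 4.59 with BAM and 3.46, 3.77 and 3.94 with ASCs, a difference of -0.31 (limma adjusted p 0.0255), and -0.15 with quantile normalization (adjusted p 0.44). Rpl5, the partner of Rpl11, could be read at days 7 and 30. At day 7 it was 4.60, 4.77 and 4.90 with BAM and 4.84, 4.91 and 5.17 with ASCs, a difference of 0.20 that did not pass the test (limma adjusted p 0.113), and of 0.31 with quantile normalization (adjusted p 0.00911). At day 180 Rpl17 differed by 0.28 (limma adjusted p 0.0164), and by 0.12 with quantile normalization (adjusted p 0.559).

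Between days 7 and 30 single members differed in both directions, and Rpl36a by more than 1.5-fold. With ASCs 0 of 10 members were called by limma, where 8.06% of all probes were. There 8 members had an unadjusted p below 0.05 (42.4% of all probes) and 7 an adjusted p below 0.05 (28.7%). With BAM 0 of 10 were called by limma, where 8.65% of all probes were, and 5 members had an unadjusted p below 0.05 (29.9%) and 3 an adjusted p below 0.05 (19.6%). The member medians (day 30 minus day 7) were 0.11 with ASCs and -0.15 with BAM, beside 0.27 and -0.06 over all probes.

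Rpl27, a large subunit protein, was lower at day 30 with either graft. With BAM it went from 3.11, 3.57 and 3.81 at day 7 to 2.72, 2.98 and 3.12 at day 30, a difference of -0.54 (limma adjusted p 4.87e-06). With ASCs it went from 3.20, 3.35 and 3.68 to 2.87, 3.00 and 3.09, a difference of -0.38 (limma adjusted p 0.00109). All 8 ASC bladders of day 30 lay below every ASC bladder of day 7, and 7 of 8 did so with BAM.

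Rpl23a with ASCs went from 3.67, 3.86 and 3.92 to 3.34, 3.37 and 3.51, a difference of -0.43 with no overlap (limma adjusted p 0.000652). Its other probe gave -0.78 (limma adjusted p 3.71e-07), past the 1.5-fold limit. Rpsa with ASCs went the other way, from 1.57, 1.81 and 2.10 to 2.12, 2.32 and 2.5, a difference of 0.51 with no overlap (limma adjusted p 0.00102). With BAM Rpsa differed by 0.23 (limma adjusted p 0.186). Whether the difference between days itself differed between the grafts was tested for all 10 members by the interaction term, and 0 were called by limma, where 0.985% of all probes were. An unadjusted p below 0.05 was found for 3 members (26.7% of all probes) and an adjusted one for 1 (5.97%).

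Rpl15 with BAM went from -1.92, -1.68 and -1.35 at day 7 to -1.37, -1.23 and -1.10 at day 30, a difference of 0.45 (limma adjusted p 0.00114). Rpl28 with BAM was lower by 0.29 at day 30, short of the 0.01 level (limma adjusted p 0.0105). The dim probe of Rpl36a differed by 0.97 with ASCs (limma adjusted p 0.0357), and by 0.15 after normexp background correction (adjusted p 0.614).

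The 1 member called between days in the wider reading was Rps26 with ASCs. It went from 3.46, 3.77 and 3.94 at day 7 to 4.22, 4.35 and 4.53 at day 30, with no overlap. The difference of 0.60, or 1.51-fold, just passed the limit (limma adjusted p 1.71e-05), and was 0.51 with quantile normalization. With BAM the same probe went from 3.69, 3.88 and 4.59 to 4.28, 4.36 and 4.51, a difference of 0.31 (limma adjusted p 0.0259). Rps27a gave only a bound: it was saturated on all 8 ASC arrays of day 30 and on none of day 7, and stood at least 1.30-fold higher at day 30 (limma adjusted p 0.0384).

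Between days 90 and 180 the lowest adjusted p with BAM were those of Rpl14 and Rpsa, the same 2 genes that were higher with ASCs than with BAM at day 90. The BAM arrays of day 90 enter both comparisons. Rpsa with BAM went from 1.97, 2.45 and 2.93 to 2.70, 2.91 and 3.22, a difference of 0.48 (limma adjusted p 0.00118). Rpl14 with BAM went from 3.59, 3.87 and 4.40 to 4.26, 4.37 and 4.63, a difference of 0.46 (limma adjusted p 4.55e-05). Among members well above background on all 16 arrays, which leaves out Rpl36a, the lowest differences were Rpl15 at -0.04 and Rps16 at -0.03, neither past the test. The less bright unsaturated probe of Rpl23a went from 2.70, 2.96 and 3.34 to 3.35, 3.69 and 4.03 with no overlap. That difference of 0.73, or 1.65-fold, passed the call rule (limma adjusted p 5.90e-07), while the brighter probe differed by 0.17 (limma adjusted p 0.19). With BAM 0 of 10 members were called by limma, where 9.39% of all probes were. There 5 members had an unadjusted p below 0.05 (34.1%), the same number as had an adjusted one (22.7%). Rpl36a, well above background on 2 of 16 arrays, was 1 of these 5.

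With ASCs 0 of 10 members were called by limma from day 90 to day 180, where 4.14% of all probes were. An unadjusted p below 0.05 was found for 2 members (26.1% of all probes) and an adjusted one for 0 (12%). Rpsa was 2.75, 2.86 and 3.22 at day 90 and 2.51, 2.96 and 3.27 at day 180, a difference of 0.05 that did not pass the test (limma adjusted p 0.803). Among members well above background on all 16 arrays, which leaves out Rpl36a, the highest differences were Rpl28 at 0.22 and Rpl27 at 0.17. The lowest were Rpl15 at -0.23 and Rpl23a at 0.04, and none of these passed the test. In the interaction terms from day 30 to 90 and from day 90 to 180, 0 of 10 members were called by limma, where 9.99% and 9.79% of all probes were. An unadjusted p below 0.05 was found for 2 and 3 members (44.9% and 38.3% of all probes) and an adjusted one for 1 and 3 (32.8% and 21.7%). Rpl14 was called in the interaction from day 90 to 180 with quantile normalization, at -0.60, where 8.4% of all probes were, and with normexp background correction, at -0.67, where 7.36% were.

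Genes that make, modify or resemble the cytosolic ribosome were read from lists, through unsaturated probes only. Of 68 mitochondrial ribosomal protein genes with a probe none was saturated throughout, and 0, 0, 3 and 0 were called by limma at days 7, 30, 90 and 180, where 7.73%, 1.67%, 12.5% and 2.44% of all probes were. At an unadjusted p below 0.05 they were 19, 8, 35 and 22 of the 68, beside 29.2%, 25.8%, 47.9% and 14.1% of all probes. The 3 at day 90 were Mrpl50 at 0.77, Mrpl58 at -0.59 and Mrps15 at -0.61. The last 2 fell short of 1.5-fold with quantile normalization, at -0.52 and -0.56. From day 90 to 180 with BAM, Mrpl50 differed by 1.00 and Mrpl58 by -0.59, and the BAM arrays of day 90 enter both comparisons. The list medians of the 4 days were -0.08, 0.06, 0.12 and -0.03. Of 36 ribosome assembly factors, Sbds, which releases eIF6 from the large subunit, was higher with ASCs at days 7 and 90. It differed by 0.73 at day 7 (limma adjusted p 4.28e-05) and by 0.68 at day 90 (limma adjusted p 5.63e-05). All 8 ASC bladders lay above every BAM bladder on both days. With BAM, Sbds was also higher at day 180 than at day 90, by 0.67 (limma adjusted p 5.86e-05), and the BAM arrays of day 90 are shared. Rrp9 at day 7 differed by -0.59 (limma adjusted p 0.00894), and by -0.56 with quantile normalization (adjusted p 0.0153). Utp20 at day 90 differed by -0.79, with the probe above background on 0 of 16 arrays, and by 0.17 with quantile normalization. No assembly factor was called by limma at days 30 and 180, where 1.67% and 2.44% of all probes were. An unadjusted p below 0.05 was found for 7 and 7 of the 36 (25.8% and 14.1% of all probes).

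The translation factors and other genes of TOP mRNAs shared the brightness of the members, since 9 of the 23 with a probe had no unsaturated probe. Of the 14 that could be read, Eif3e, a subunit of the initiation factor eIF3, was higher with ASCs by 0.65 at day 90 (limma adjusted p 1.36e-07). All 8 ASC bladders lay above every BAM bladder. With BAM, Eif3e was also higher at day 180 than at day 90, by 0.76 (limma adjusted p 3.30e-09), and the BAM arrays of day 90 enter both comparisons. Vim, the intermediate filament of mesenchymal cells, was lower with ASCs by 0.92 at day 30 (limma adjusted p 0.00968), a call lost with quantile normalization (adjusted p 0.0119). Tpt1, a tumour protein of growing cells, was higher with ASCs by 0.67 at day 180 (limma adjusted p 1.20e-05), but by 0.46 with quantile normalization and 0.45 with normexp, short of 1.5-fold. Of 17 genes of mTORC1 and S6 kinase signalling none was called by limma between the grafts. Of all probes 7.73%, 1.67%, 12.5% and 2.44% were called at days 7, 30, 90 and 180. An unadjusted p below 0.05 was found for 3, 6, 6 and 1 of the 17 on those days (29.2%, 25.8%, 47.9% and 14.1% of all probes). Eif4ebp2, a repressor of cap-dependent initiation, rose from day 7 to day 30 by 0.74 with ASCs (limma adjusted p 6.45e-06) and by 0.84 with BAM (limma adjusted p 3.71e-07). From day 90 to 180 with BAM 2 of the 17 were called, where 9.39% of all probes were. They were Mlst8 at 0.71 (limma adjusted p 7.44e-07) and Rraga at 0.71 (limma adjusted p 7.82e-06). Rpl3l, the muscle paralogue of Rpl3 and 1 of 3 paralogues outside the members, was lower with ASCs at day 7 by 1.63 (limma adjusted p 0.000276). Its probe was dim, at a mean of -6.47 with ASCs and -4.83 with BAM, and well above background on 11 of 16 arrays. It differed by -0.79 with quantile normalization (adjusted p 0.0371) and by -0.29 with normexp (adjusted p 0.0330).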

How the data were processed

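The Agilent 1-colour scanner files of 64 arrays were used. Per the file headers, the authors extracted probe intensity values with Agilent Feature Extraction 12.0.1.1, which subtracted background and marked saturated spots. The series matrix held values that the authors deposited after processing, and their log2 was compared with the log2 processed intensities. On that scale 61 of 64 columns lay within 0.01, so these held unlogged intensities. The other 3 columns, of the day 7 ASC group, differed by a median of about -3.3.

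From the intensities, log2 values were taken, each array's 75th percentile over gene spots was subtracted, control and outlier spots were left out, and replicate spots were averaged per probe. Saturation on an array meant that a share of at least 0.5 of a probe's spots was marked so. Each gene was read through its brightest probe that was saturated on no array. All 8 groups were fitted together in limma 3.58.1 (R 4.3.3) with Benjamini-Hochberg adjustment over 30367 probes. Python 3.11.15 with pandas 2.3.3 made the tables. The fit was tested on simulated data. The number of arrays limits precision. The p-values measure the spread of arrays within groups, as 1 estimate per probe shared by all 8 groups and moderated over probes. The members and gene lists were chosen with earlier results of these data known. Named were the 3 members with the highest and the 3 with the lowest difference in each graft comparison, the 2 and 2 in each comparison of days (well above background on all 16 arrays), every called member, genes fixed by role, and at most 3 called genes of each list. Rps26, Rpl17 and other probes of a gene were named after their values were seen. Alternatives were quantile normalization, normexp (offset 50) on median signals followed by quantile normalization, the percentile over 8583 detected probes, the series matrix, leaving out dim probes, a replicate block, no moderation, single days, other choices of probe, and leaving out each array. Probe sequences were not used here. Values of 1 member are not reported here, although it is counted among the members.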

Additional observations from a re-analysis of the deposited data

Results flagged for a closer look

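Among 80 sets of 8 arrays (10 genes in 8 groups), 5 held an array far from the other 7 by Dixon's test, which flags about 1 in 20 groups by chance. Levels are log2 signal minus the array's 75th percentile. Rpl23a read 3.51 in BAM+ASCs replicate 5 at day 30, where the others read 3.34 to 3.41, and 4.21 in BAM+ASCs replicate 3 at day 90, where the others read 3.47 to 3.78. Rpsa read 3.22 in that same array, where the others read 2.75 to 2.95. Rps25 read 3.80 in BAM replicate 2 at day 7, where the others read 3.48 to 3.61. Rpl36a read -2.78 in BAM+ASCs replicate 1 at day 30, where the others read -5.16 to -4.13. The cause was not tested.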

How the results depend on the processing

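No member was called with the replicate block (0 in each comparison), with the two-way model without moderation, with the percentile over detected probes or with the series matrix values. The replicate numbers did not pair the arrays: correlations of same-numbered arrays ran from -0.28 to 0.33. Of 19 single-gene differences with an adjusted p below 0.05, 0 changed sign under an alternative, and 20 of the other 61 did, of which the largest was 0.22. Members called, 0 as reported, became 1 at day 7 with dim probes left out and with only that day's arrays (Rpl36a each time), and 0 to 1 when single arrays were left out (1 without BAM replicate 2, 4 or 5, Rpl36a). From day 7 to 30 with BAM, leaving out single arrays gave 0 to 1 (Rpl27, without BAM day 7 replicate 6). With ASCs the count was 1 with saturated probes kept or with probes unsaturated in the groups compared (Rps26), and 1 with all unsaturated probes of a gene averaged (Rpl23a, -0.61). With saturated probes kept it was 69 at day 90, 69 from day 90 to 180 with BAM, 69 in the interaction from day 30 to 90 and 70 in that from day 90 to 180. With quantile normalization as well, a setting chosen after seeing the data like that on probes unsaturated in the groups compared, it was 4, 4, 5 and 4 (Rpl7a, Rps15a, Rps20 and Rps23 each time, and Rpl8 in the interaction from day 30 to 90). Quantile and normexp each gave 1 (Rpl14) in the last interaction. At an adjusted p below 0.05 alone, counts were 2 at day 7, 2 at day 90, 7 (ASCs) and 3 (BAM) from day 7 to 30, 5 from day 90 to 180 with BAM, and 1, 1 and 3 in the interactions.

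The median difference at day 7 became 0.0381 with quantile normalization, 0.0720 with normexp and 0.0247 with saturated probes kept and quantile normalization. From day 7 to 30 with ASCs it became -0.0126, -0.0251 and -0.0256 under the same 3, and -0.11 with saturated probes kept. Keeping saturated probes gave -0.0690 at day 30, 1.06 at day 90, -0.16 from day 90 to 180 with ASCs and 0.82 with BAM. From day 7 to 30 with BAM it was -0.000337 with probes unsaturated in the groups compared and 0.0062 with saturated probes and quantile normalization. Saturation limits what can be said of 65 of the 75 genes, and at days 90 and 180 signal near background limits Rpl36a.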
